A study of Homo sapiens with 8 samples.

Results

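Cells rich in the transcript of serum amyloid A1 (SAA1) were described within 1 single-cell RNA library, that of SUM159 cells passaged in palbociclib. A cell was taken as SAA1-high when it held 5 or more SAA1 unique molecular identifiers (UMIs, each standing for 1 captured mRNA molecule), so the members were selected on their SAA1 count alone. By this rule 178 of the 693 palbociclib cells were SAA1-high, out of 5738 cells in the series. They were set against the 273 cells of the same library with 0 SAA1 UMIs (SAA1-zero cells), and the 242 cells with 1 to 4 UMIs were in neither class.

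SUM159 is an established human triple-negative breast cancer line, and the cells carried the ClonTracer lentiviral barcode library, which marks clones with a DNA tag. The pre-treatment library held parental cells, and the others held cells passaged up to 18 times in DMSO vehicle, in JQ1 at 100 nM, in paclitaxel at 0.6 nM, in palbociclib at 160 nM, or in JQ1 with paclitaxel or with palbociclib. JQ1 displaces BET bromodomain proteins from chromatin, paclitaxel stabilizes microtubules, and palbociclib inhibits the kinases CDK4 and CDK6. Replicate cultures of a treatment were mixed before encapsulation, and each treatment gave 1 library, except JQ1 with 2 (JQ1-A and JQ1-B). The files map no cell to a culture or to a ClonTracer barcode, so whether the SAA1-high cells came from 1 culture or from few clones was not tested. The palbociclib library belonged to the experiment of JQ1-B and JQ1+palbociclib, whereas DMSO, paclitaxel, JQ1-A and JQ1+paclitaxel formed another, so a difference between the palbociclib and DMSO libraries cannot be told apart from a difference between experiments.

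SAA1 is a secreted acute-phase protein that the liver makes in large amounts during inflammation and that some epithelial and tumour cells make as well. Its gene is switched on by interleukins and bacterial products through the transcription factors NF-kB, STAT3 and C/EBP, and its close relative SAA2 lies beside it and is usually induced with it. Among the other genes that inflammatory signals induce, SOD2 makes a mitochondrial superoxide dismutase, SLPI a secreted inhibitor of neutrophil proteases, C3 the central complement protein and BIRC3 an inhibitor of apoptosis.

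SAA1 was expressed very unevenly. The 178 members held from 5 to 305 SAA1 UMIs with a median of 12, and together 3794 of the 4246 SAA1 UMIs of the library (89.4%). Relative to depth, they carried between 0.773 and 89.3 SAA1 UMIs per 10000 UMIs, with a median of 5.39. The threshold fell in a continuous tail: 27 cells held 3 UMIs and 35 held 4, just outside the class, whereas 27 held 5 and 13 held 6, just inside it. Free RNA spread evenly over the cells could have given at most 0.932 SAA1 UMIs per cell on average, since it would otherwise have left fewer than 39.4% of cells at 0. No cell type lacking SAA1 was in the library, so the level of free RNA itself was not measured.

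The share of SAA1-high cells differed widely between libraries. It was 25.7% in palbociclib (exact binomial 95% interval 22.5% to 29.1%), 8.31% in pre-treatment (6.23% to 10.8%), 6.84% in JQ1+paclitaxel (5.02% to 9.08%), 2.61% in DMSO (1.36% to 4.52%) and 1.86% in paclitaxel (1.02% to 3.10%). It was lowest where JQ1 was given alone or with palbociclib, at 0.430% in JQ1-A, 0.461% in JQ1-B and 0.293% in JQ1+palbociclib. With every cell thinned to 10000 UMIs, the share was 14.3% in palbociclib, 3.92% in pre-treatment and 4.26% in JQ1+paclitaxel, and the palbociclib interval of 11.7% to 17.2% lay above those of all 7 other libraries. These intervals cover counting error only. The palbociclib share rests on 1 library and was not tested against other treatments.

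**Figure D1:**
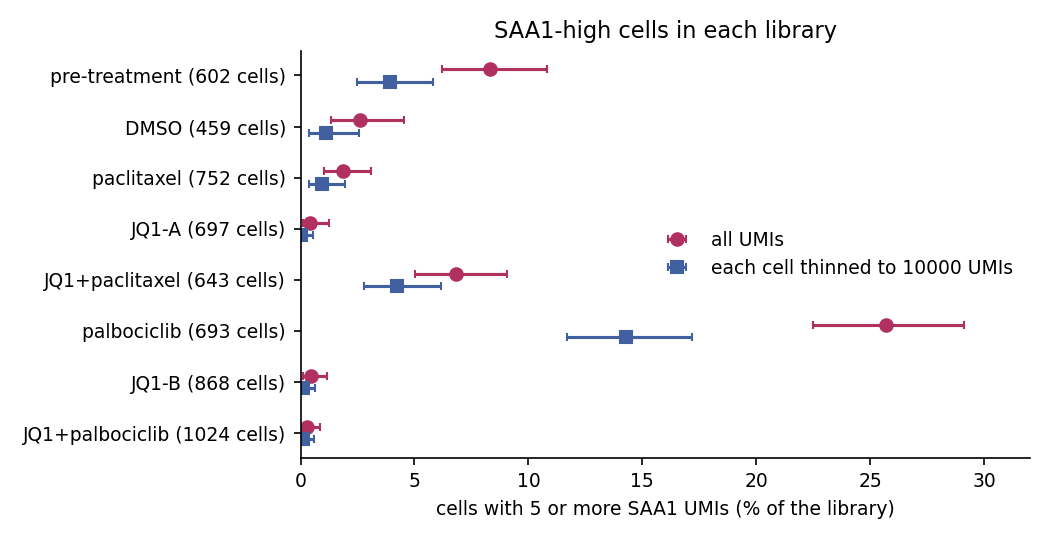
Percent of the cells of each library with 5 or more SAA1 UMIs, on all UMIs (circles) and after thinning each cell to 10000 UMIs (squares), with exact binomial 95% intervals. Palbociclib stands at 25.7%, above pre-treatment at 8.31% and JQ1+paclitaxel at 6.84%.

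Members were somewhat deeper than SAA1-zero cells. The median was 23704 UMIs in the members (4820 to 68727) and 21338 in the SAA1-zero cells (5220 to 66756), with medians of 3993.5 and 3866 detected genes and mitochondrial shares of 5.44% and 5.65%. Summed UMIs were 4560625 in the members and 6133459 in the SAA1-zero cells. After thinning to 10000 UMIs, 95 of the 174 members deep enough still held 5 or more SAA1 UMIs and 1 held none. Of the 26 cells whose cell barcode also occurred in another library, 0 were members and 2 were SAA1-zero cells.

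The markers of the line were present in the members, at somewhat lower levels than in SAA1-zero cells. Of the 8 mesenchymal genes listed for SUM159 (such as VIM and CD44), 7 were measured above the level filter and their ratios were all below 1, between 0.687 and 0.993, with a summed level of 14962 CPM in members and 16169 in SAA1-zero cells, where CPM are UMIs scaled to the same total in each class. Markers of cells that make SAA1 in the body were nearly absent. Of 10 hepatocyte genes 3 were in the table, with APOA2 at 0 in both classes. They came to 15 UMIs (3.29 CPM) in the members and 6 (0.978 CPM) in the SAA1-zero cells. Of 10 leukocyte genes 6 were in the table, with 56 and 70 UMIs, or 12.3 and 11.4 CPM. PTPRC, which encodes the pan-leukocyte protein CD45, was at 0 in both classes. Endothelial markers came to 84 and 106 UMIs, or 18.4 and 17.3 CPM, nearly all from ENG. Basal epithelial markers came to 75.9 and 100.4 CPM, mostly DST. Of 10 luminal epithelial genes 3 were measured above the level filter, all of them simple-epithelial keratins, and 0 passed 1.5-fold. These keratins were higher in members: KRT7 at 757 against 560 CPM, KRT18 at 504 against 406 and KRT8 at 399 against 347.

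Genes were then compared between the classes as CPM of the summed cells, with SAA1 left out of the totals. Of 4381 genes averaging 20 CPM or more over both classes, 53 (1.21%) were 1.5-fold or more higher in SAA1-high cells and 83 (1.89%) were 1.5-fold or more lower. The median log2 ratio over these genes was -0.01, and 48.0% of them had a ratio above 1. The classes came from 1 library, so the ratios have no replicate check, and the 95% intervals given with them cover counting error only. Depth-matching the classes, at 175 cells each, gave 55 and 103 genes, and raising the limit for members to 10 UMIs gave 107 and 126.

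SAA2, SLPI and C3 were among the 12 genes with the highest ratios. Of the acute-phase list, 3 genes were measured above the level filter and 2, SAA2 and C3, were past 1.5-fold higher, beside 1.21% of all genes. The third, PTX3, a secreted pattern-recognition protein, had a ratio of 0.990. SAA2 stood at 164.8 CPM in members and 2.45 in SAA1-zero cells, a ratio of 67.4 (95% interval 40.6 to 121). SLPI was at 83.2 against 11.7 CPM, a ratio of 7.09 (5.49 to 9.25), and a SLPI UMI was found in 40.8% of members against 10.9% of SAA1-zero cells after thinning. C3 was at 40.4 against 15.7 CPM, a ratio of 2.58 (2.005 to 3.34). SAA2 and SLPI UMIs were each found in more than 100 members, 110 and 103 of the 178, but unevenly. The highest 10% of members for each gene held 59.9% of the SAA2 UMIs and 48.8% of the SLPI UMIs. A single member held 10.1% of the SAA2 UMIs, and after thinning the median member held 0 UMIs of either gene.

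The SAA2 value is uncertain because SAA1 and SAA2 share part of their sequence. SAA1 lies on chr11:18287807-18291524 (GRCh37, plus strand) and SAA2 on chr11:18260770-18270215 (minus strand), and 34.2% of the 50-base words in SAA1 coding transcripts also occur in SAA2 transcripts, and 17.8% of SAA2 words in SAA1. Within the last 400 bases, where reads of a 3′ library fall, 21.1% of SAA1 words and 12.998% of SAA2 words were shared. SAA2 UMIs came to 19.1 per 100 SAA1 UMIs in palbociclib, 14.95 in pre-treatment and 13.9 in paclitaxel, and between 6.38 and 8.40 in the other 5 libraries. How much of the SAA2 signal came from SAA1 molecules was not tested.

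SOD2 was the most abundant of the genes more than 2-fold higher in members. It stood at 980 CPM against 451, a ratio of 2.17 (2.07 to 2.28), and nearly every cell of both classes held it. In cells thinned to 10000 UMIs, members held from 0 to 62 SOD2 UMIs with a median of 8, and SAA1-zero cells from 0 to 19 with a median of 4. BIRC3 was at 40.6 against 17.3 CPM, a ratio of 2.35 (1.84 to 3.01). ICAM1, a leukocyte adhesion receptor that NF-kB induces, was at 35.1 against 21.7 CPM.

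These 3 were the members of the NF-kB list past 1.5-fold, out of 15 measured, with 0 lower; the median ratio of the list was 1.18. IER3, NFKBIA, the NF-kB inhibitor, and TNFAIP3, a brake on NF-kB signalling, gave ratios of 0.924, 1.16 and 0.976. Over all 4381 genes 1.21% were past 1.5-fold higher and 1.89% lower, so a count of 0 in a small list is close to these shares. Of 8 measured cytokines and chemokines 0 passed 1.5-fold in either direction. IL8, the neutrophil chemokine, was at 541 CPM in members and 751 in SAA1-zero cells (ratio 0.721), CXCL2 at 489 against 569, and IL6 at 233 against 200.4. Of 10 measured genes of the STAT3 and C/EBP list 0 passed either, among them STAT3 at 1.26, CEBPB at 1.15 and CEBPD at 0.983. Receptors for cytokines and Toll-like ligands gave 0 of 6, with IL6ST, the signalling subunit shared by interleukin-6 receptors, at 0.822 and OSMR at 1.23.

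Of the interferon-stimulated genes, IFIT3, OASL and ISG15 were higher in members, the first pair mainly through a few cells. IFIT3, an antiviral RNA-binding protein, was at 35.8 against 8.15 CPM (ratio 4.39, 3.18 to 6.15), OASL, an oligoadenylate synthetase-like protein, at 38.6 against 8.97 (4.31, 3.17 to 5.94), and ISG15, a ubiquitin-like modifier, at 208 against 107 (1.95, 1.76 to 2.16). They were the 3 of 13 measured genes of the list past 1.5-fold, and 12 of the 13 had a ratio above 1, with a median of 1.24. Over all 4381 genes 1.21% were past 1.5-fold higher and 48.0% had a ratio above 1. The highest 10% of members for each gene held 92.6% of the OASL UMIs and 87.1% of the IFIT3 UMIs. The same share was 59.9% for SAA2, 59.4% for ISG15, 48.8% for SLPI and 37.1% for SOD2. OASL or IFIT3 was detected in 32 of 174 thinned members, of which 59.4% also held a SLPI UMI, against 36.6% of the other 142. The 7 measured genes of MHC class I antigen presentation also had ratios above 1, between 1.03 and 1.37 and with 0 past 1.5-fold, with B2M at 1565 against 1262 CPM.

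The promoters of some of these genes carry letters that the factors of these pathways are known to bind, and they are shown for the interferon and NF-kB genes with the highest ratios that the promoter table holds. The sequences are from RefSeq (GRCh38.p14), all on the plus strand, with matches in capitals, on either strand, to the interferon-stimulated response element, written as GAAA, any 2 bases and GAAA (ISG15 and IFIT3, the latter for its downstream start) or to the NF-kB motif, written as GGG, any 2 bases and TTTCC (BIRC3). The window of ISG15, with 2 overlapping matches, is chr1:1013364-1013419, that of IFIT3 is chr10:89332415-89332507 and that of BIRC3 is chr11:102317265-102317314.
ISG15: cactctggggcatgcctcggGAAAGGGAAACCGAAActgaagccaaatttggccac
IFIT3: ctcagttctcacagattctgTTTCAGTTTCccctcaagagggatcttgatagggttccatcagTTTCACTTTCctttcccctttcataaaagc
BIRC3: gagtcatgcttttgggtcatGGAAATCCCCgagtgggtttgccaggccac

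The matches begin 113 and 107 bases before the ISG15 start, 94 and 51 bases before the IFIT3 start and 199 bases before the BIRC3 start. A promoter window (250 bases before to 50 after the start) was found for 38 of the 53 genes higher in members. The response element was in windows of 3 of these 38 genes (IFIT3, ISG15 and PRKAG2, 7.89%), in 0 of the 62 lower genes with a window, and in 4.07% of all genes tested. The NF-kB letters were in 1 of the 38 higher genes (2.63%), in 2 of the 62 lower genes (3.23%) and in 3.19% of all genes tested. Over all 35116 windows in the table the shares were 3.57% and 1.91%.

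Aldo-keto reductases, enzymes of steroid and aldehyde metabolism, were also higher in members. Over all 4381 genes 1.21% were past 1.5-fold higher and 1.89% lower. Of 13 measured NRF2 targets, genes induced by oxidative and electrophilic stress, 4 were past 1.5-fold higher and 0 lower. They were the aldo-keto reductases AKR1C2 at 39.3 against 12.2 CPM (ratio 3.21, 2.44 to 4.26), AKR1C1 at 51.4 against 24.9 (2.06, 1.67 to 2.54) and AKR1C3 (1.80), whose near-identical sequences make the division of reads among them uncertain, and HMOX1, the haem-degrading enzyme, at 152.1 against 81.4. A single member held 22.6% of the AKR1C1 UMIs of the class. NQO1 and TXNRD1, other NRF2 targets, stood at 358 against 298 CPM and 193 against 159, while FTH1, the ferritin heavy chain, and TALDO1 gave ratios of 1.12 and 0.982.

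Metallothioneins, which bind zinc and respond to metals and glucocorticoids, differed among themselves: MT1X was at 1378 CPM in members and 802 in SAA1-zero cells (ratio 1.72, 1.66 to 1.78), whereas MT1E was at 460 against 383 CPM and MT2A gave a ratio of 1.09, and reads of such similar genes may be split between them. MT1X was the only one of 13 measured glucocorticoid targets past 1.5-fold, and 12 of the 13 lay above 1. Of all 4381 genes 1.21% were past 1.5-fold higher and 48.0% lay above 1. AQP3, a channel for water and glycerol, was at 63.0 against 28.9 CPM (2.18, 1.80 to 2.65) and PDPN, the membrane glycoprotein podoplanin, at 39.7 against 19.2 (2.06, 1.63 to 2.63). The unannotated transcript AC006262.5 was at 27.2 against 12.9 CPM.

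SLC14A1, PCDH7, ITGA10 and COL1A1 had the lowest ratios in members. SLC14A1, a urea transporter, stood at 8.78 CPM in members and 31.5 in SAA1-zero cells, a ratio of 0.279 (0.193 to 0.394). The protocadherin PCDH7 was at 12.7 against 40.3 CPM (0.316), the collagen-binding integrin ITGA10 at 12.5 against 38.6 (0.324), and COL1A1, the main chain of type I collagen, at 25.9 against 74.9985 (ratio 0.345, 0.280 to 0.424). SCG5, a chaperone of secretory granules, was at 21.3 against 60.3 CPM. IGFBP7, a secreted binder of insulin-like growth factors, was at 32.3 against 68.2 CPM (0.473) and DKK1, a secreted Wnt inhibitor, at 41.9 against 82.8 (0.506, 0.426 to 0.599). The remaining genes of the 12 lowest were FAM133A, DSEL, BEND6, RNF26 and LINC01116, with ratios from 0.446 to 0.515.

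Few other matrix genes were past 1.5-fold. Of 14 measured matrix and TGF-beta targets COL1A1 was the only one past 1.5-fold lower, beside 1.89% of all genes. TGFBI, an adhesion protein that TGF-beta induces, was the only one past it higher (700 against 403 CPM, ratio 1.74), beside 1.21%. The median ratio of the list was 0.909. FN1, fibronectin, was at 208 against 302 CPM (0.687) and TIMP1, an inhibitor of matrix proteases, at 4598 against 3986 (1.15). The proteases MMP2 and PLAT gave ratios of 0.689 and 0.785, and MMP1, below the level filter, was at 3.07 against 17.3 CPM.

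Transcripts of dividing cells were somewhat lower in members. Of 34 measured G2/M genes 30 had a ratio below 1, with a median of 0.776, where 48.0% of all 4381 genes lay above 1. NUSAP1, CENPF and ANLN, which act in spindle assembly, at the kinetochore and in cytokinesis, were past 1.5-fold lower, at 0.654 to 0.666. The summed G2/M level was 2733 CPM in members and 3246 in SAA1-zero cells, a ratio of 0.842, and 0.766 in depth-matched cells; in the other 4 libraries with enough SAA1-high cells it was 0.804 to 1.14. S-phase genes gave a summed ratio of 1.06, or 0.984 in depth-matched cells, with PCNA, the replication clamp, at 1.38. Of the CDK, cyclin and CDK inhibitor list 0 of 7 passed 1.5-fold, beside 1.21% higher and 1.89% lower over all genes. CDK4, a palbociclib target, gave 0.901, its partner CCND1 0.838 and CCND3 1.06.

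The other lists differed little. The median ratios were 1.03 for ATF4 and unfolded-protein-response genes (12 measured), 1.02 for hypoxia genes (12), 0.906 for cholesterol and fatty acid synthesis (11), 0.945 for the S100 family (8) and 0.960 for immediate early genes (13). In these lists SLC7A11, SQLE and NR4A2 were past 1.5-fold lower, at 0.651, 0.647 and 0.603, and 0 genes were past it higher. The shares over all genes were 1.89% lower and 1.21% higher. SCARB1, the only SAA receptor measured above the level filter, was at 42.1 against 48.7 CPM. Of 3 genes chosen as palbociclib-raised in earlier work on these data, FAM20C, a secretory kinase, was at 0.655 and the others were under the level filter. The summed mitochondrial transcripts gave 0.924, but 1.01 in depth-matched cells, and ribosomal protein genes gave 0.982.

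**Figure D2:**
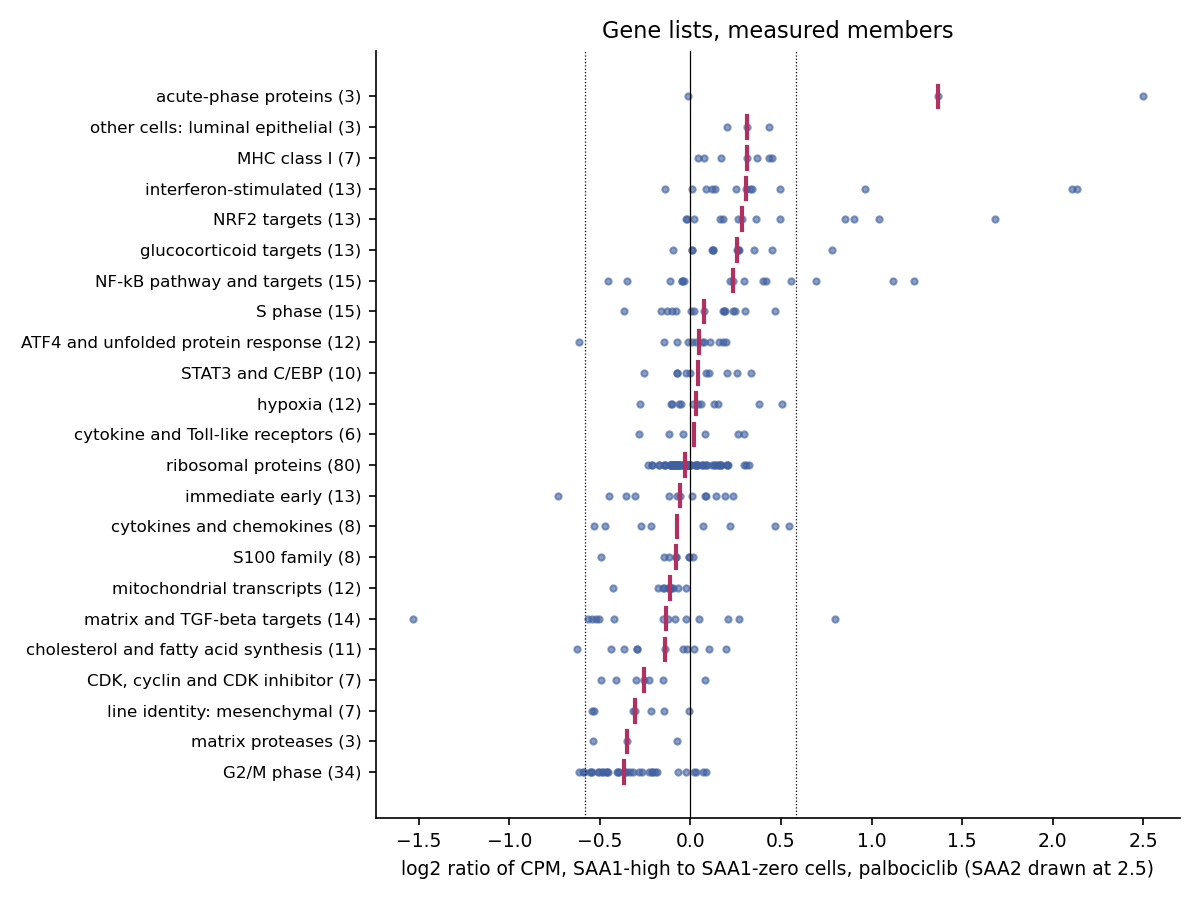
Log2 ratio of CPM in SAA1-high to SAA1-zero cells of the palbociclib library for each measured gene (points) of each list, with the list's median (red bars), the number measured in brackets, and dotted lines at 1.5-fold. SAA2, at a log2 ratio of 6.07, is drawn at 2.5. The G2/M list lies mostly below 0, with a median ratio of 0.776.

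Levels followed the SAA1 count step by step for most of these genes. Over cells with 0, 1 to 4, 5 to 19, and 20 or more SAA1 UMIs, SOD2 stood at 451, 587, 759 and 1432 CPM and SLPI at 11.7, 21.7, 62.0 and 126.5. OASL was nearly level at first, at 8.97 and 9.90 CPM, and then stood at 29.7 and 56.9. In the other direction SLC14A1 was at 31.5, 22.0, 9.47 and 7.36 CPM and DKK1 at 82.8, 54.3, 48.0 and 29.5, whereas COL1A1 went from 74.9985 to 45.7, 25.1 and 27.4 and was no lower in the last class. Of the 53 higher genes 41 increased at every step, and of the 83 lower genes 55 decreased at every step. Over all 4381 genes 11.3% increased and 12.3% decreased at every step, and since the members fill the last 2 classes, these counts follow partly from the choice of the genes.

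**Figure D3:**
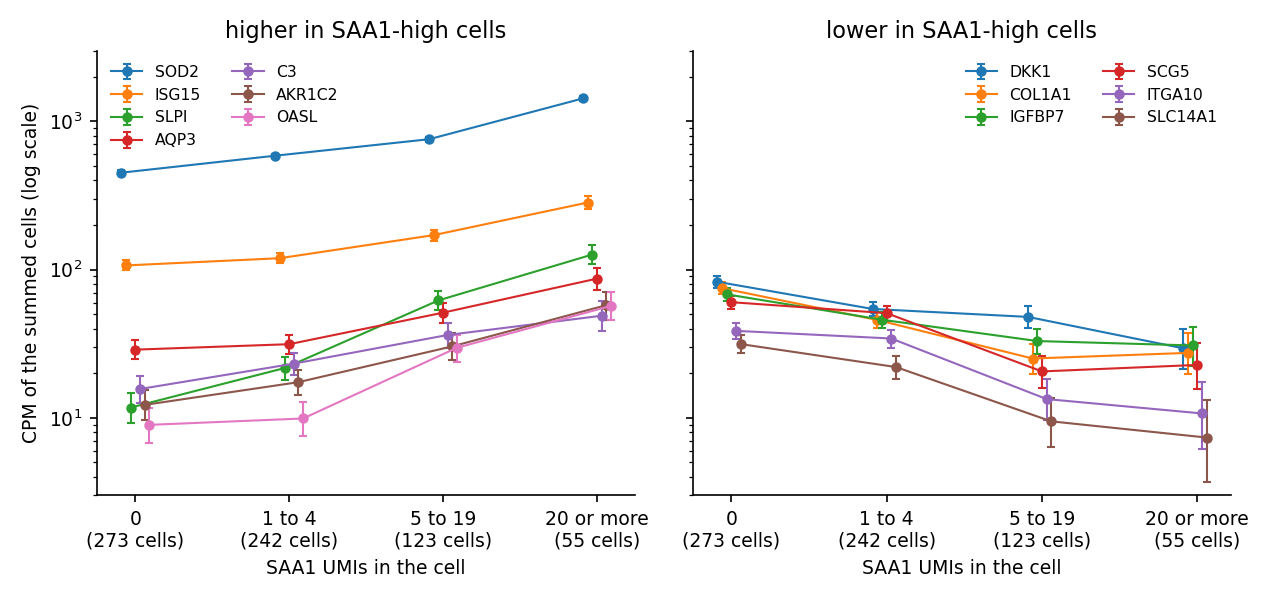
CPM of summed palbociclib cells (log scale) by the number of SAA1 UMIs in the cell, with exact Poisson 95% intervals. SOD2 climbs from 451 to 1432 CPM and SLPI from 11.7 to 126.5, while SLC14A1 declines from 31.5 to 7.36.

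Whether SAA1-high cells of other libraries differ in the same way was tested in cells that the rule had not used. The 4 other libraries with at least 10 SAA1-high cells were pre-treatment (50 cells), JQ1+paclitaxel (44), paclitaxel (14) and DMSO (12). Counts were summed per class and library, and the classes were compared with edgeR's quasi-likelihood test with the library as a block and Benjamini-Hochberg adjustment. Of 4426 genes tested, 94 (2.12%) rose and 77 (1.74%) fell in SAA1-high cells at an adjusted p under 0.05, and 851 had an unadjusted p under 0.05. The number of calls rested strongly on single libraries: 23 without paclitaxel, 49 without DMSO, 72 without pre-treatment and 345 without JQ1+paclitaxel. With only pre-treatment and JQ1+paclitaxel, the libraries with at least 20 SAA1-high cells, 1 gene was called, SAA2. In these libraries too the SAA1-high cells were deeper, with medians of 23063 to 27497 UMIs against 20205 to 22270, and depth-matched cells gave 56 higher and 31 lower genes.

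SOD2 was higher in SAA1-high cells of every one of these libraries. Its level was 452 against 275 CPM in pre-treatment, 500 against 216 in DMSO, 299 against 117 in paclitaxel and 291 against 114 in JQ1+paclitaxel. It rose by a log2 fold change of 1.205 ± 0.12 (SE, edgeR adjusted p = 5.8e-05), and with each library left out in turn the adjusted p was at most 0.016. MT1X rose by 1.03 (adjusted p = 0.00012, at most 0.017 with a library left out). PLAC8, a small cysteine-rich protein, rose by 1.52 ± 0.18 (adjusted p = 0.00036, at most 0.019), and in palbociclib its ratio was 1.45.

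OASL was at 52.7 against 17.6 CPM in pre-treatment, 71.8 against 11.97 in DMSO, 28.0 against 6.85 in paclitaxel and 2.70 against 1.0999 in JQ1+paclitaxel. The 2.70 CPM of JQ1+paclitaxel rests on 3 UMIs. OASL rose by 2.003 ± 0.26 on the log2 scale (edgeR adjusted p = 0.00043), and stayed called in the 3 fits without 1 library that kept it above the level filter. In depth-matched cells OASL lost its call, with a log2 fold change of 1.37 (adjusted p = 0.063). AQP3 rose by 2.06 ± 0.27 (adjusted p = 0.00052, at most 0.030 in such fits), from 5.18 to 17.1 CPM in pre-treatment and from 20.7 to 96.4 in JQ1+paclitaxel, but stood at 13.8 against 11.02 in DMSO. AKR1C2 rose by 1.06 ± 0.22 (adjusted p = 0.013), a call lost without DMSO, paclitaxel or pre-treatment, where the adjusted p reached 0.14, and in depth-matched cells (0.054). SAA2 rose by 7.51 (adjusted p = 2.0e-09), on 0 to 7 UMIs in the SAA1-zero cells of each library and with the same doubt about read assignment.

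SLPI and several other genes were too low in these libraries for the filter on levels. SLPI was at 20.8 against 4.87 CPM in pre-treatment, 8.29 against 2.86 in DMSO, 42.0 against 5.57 in paclitaxel and 17.1 against 3.38 in JQ1+paclitaxel. It was thus higher in SAA1-high cells of all 4, although the 8.29 CPM of DMSO rests on 3 UMIs. Without the filter its edgeR log2 fold change was 2.34 (adjusted p = 1.7e-11), in a fit that gave every gene a common spread, so that p does not reflect how SLPI itself varied between libraries. C3 was higher in 3 of the 4 and at 0 in the SAA1-high cells of paclitaxel. PDPN was higher in all 4, and ITGA10, FAM133A and LINC01116 lower in all 4. Some of these directions rest on few UMIs. The SAA1-high cells of DMSO held 5 of C3, 5 of PDPN, 2 of ITGA10, 5 of FAM133A and 4 of LINC01116. Those of paclitaxel held 1 of ITGA10 and 3 of FAM133A. For LINC01116 there were 3 in those of pre-treatment and 0 in those of JQ1+paclitaxel. IFIT3 was higher in 2 and lower in 2, at 44.3 against 7.30 CPM in paclitaxel but 14.8 against 24.6 in pre-treatment.

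Of the lower genes, SLC14A1 and DKK1 kept their calls in each fit with a library left out that tested them. SLC14A1 was at 19.3 against 79.5 CPM in pre-treatment, 19.3 against 40.0 in DMSO, 4.67 against 34.8 in paclitaxel and 2.70 against 8.97 in JQ1+paclitaxel, and fell by 1.85 ± 0.25 on the log2 scale (edgeR adjusted p = 0.00052, at most 0.019 in the 3 fits that kept it). Its SAA1-high values rest on 7 UMIs in DMSO, 2 in paclitaxel and 3 in JQ1+paclitaxel. DKK1 fell by 1.40 ± 0.19 (adjusted p = 0.00066, at most 0.022) and PLAT, tissue plasminogen activator, by 1.26 ± 0.18 (adjusted p = 0.00078, at most 0.019). IGFBP7 fell by 1.44 ± 0.31 (adjusted p = 0.019), a call lost without paclitaxel or pre-treatment (0.18 without paclitaxel), and in DMSO it was not lower, at 69.0 against 63.6 CPM. Without JQ1+paclitaxel its log2 fold change was -0.89. DSEL fell by 0.94 ± 0.18 (adjusted p = 0.0088), lost without the same libraries (at most 0.069). CXCL3, a neutrophil chemokine, fell by 1.35 ± 0.21 (adjusted p = 0.0020) and lost the call without pre-treatment (0.068) and in depth-matched cells (0.22), and in paclitaxel it stood at 11.7 against 10.5 CPM. KCNMA1, a potassium channel, fell by 1.29 ± 0.22 (adjusted p = 0.0032) and lost it without paclitaxel or pre-treatment (at most 0.074). COL1A1 did not pass (-0.41 ± 0.26 on the log2 scale, edgeR adjusted p = 0.41) and stood at 95.7 against 69.6 CPM in pre-treatment, and neither did SCG5 (-0.74 ± 0.24, adjusted p = 0.10), which was lower in all 4.

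**Figure D4:**
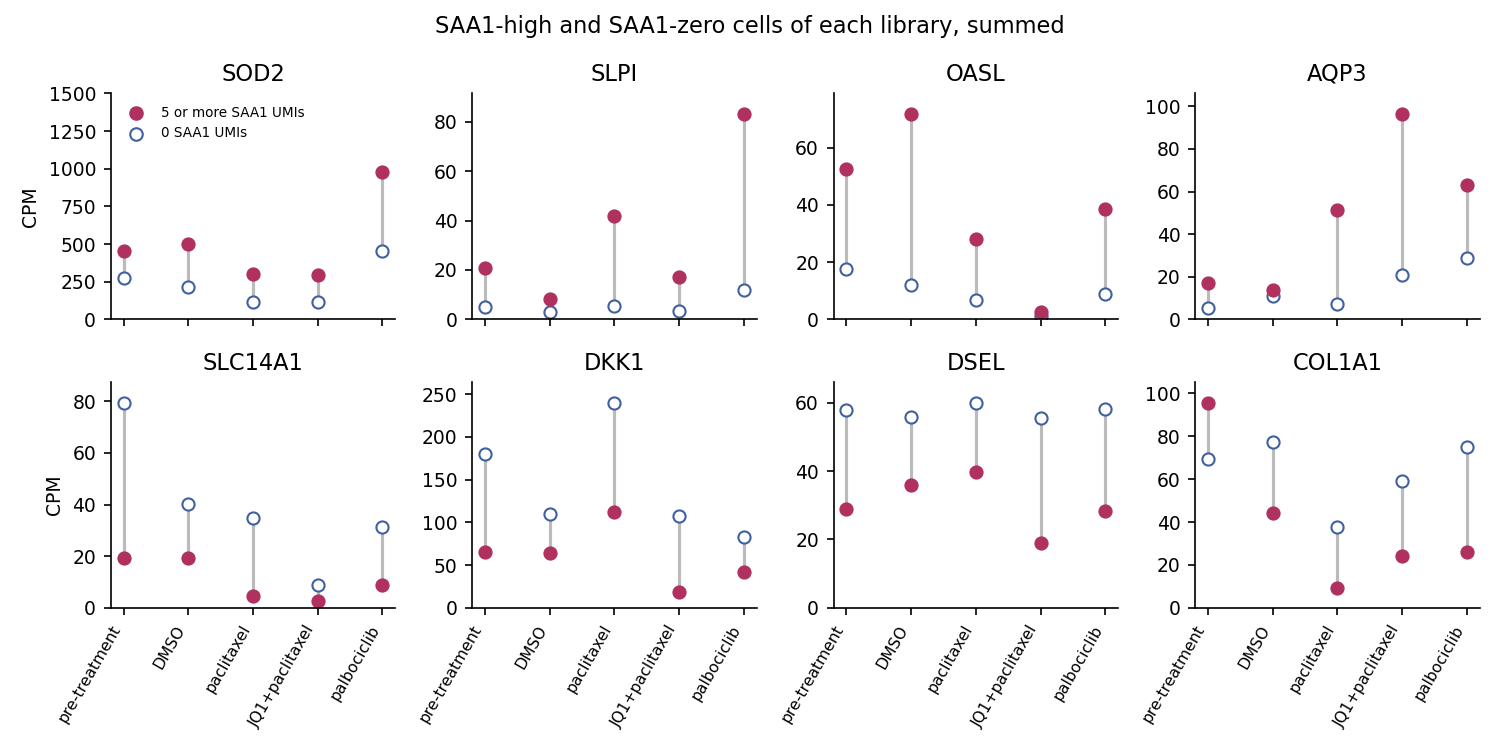
CPM of the summed SAA1-high cells (filled) and SAA1-zero cells (open) of 5 libraries for 8 genes, each on its own axis from 0. SOD2 is higher in SAA1-high cells of every library, and COL1A1 is lower except in pre-treatment, at 95.7 against 69.6 CPM.

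The genes called in the other libraries mostly lay on the same side in palbociclib. Of the 94 genes that rose elsewhere, 92 (97.9%) had a palbociclib ratio above 1 and 16 were past 1.5-fold, with a median log2 ratio of 0.34. Of the 77 that fell elsewhere, 74 (96.1%) had a ratio below 1 and 19 were past 1.5-fold, with a median of -0.37. Over all 4426 tested genes 48.6% lay above 1 and the median was -0.01. With depth-matched cells in both comparisons, a setting added after the data were seen, the counts were 52 of 56 (92.9%) and 29 of 31 (93.5%), beside 42.6% above 1 over all genes.

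Read from the palbociclib side, 45 of the 53 higher genes were tested elsewhere, and 16 of them (35.6%) rose and 0 fell. These 16, which are 17.0% of the 94, were SAA2, OASL, AKR1C2, AQP3, SOD2, MAOA, KRT75, PRKAG2, TGFBI, MT1X, TGM2, GLRX, MAGEA6, CPD, MRPL22 and ELL2. TGFBI lost its call without DMSO, paclitaxel or pre-treatment (edgeR adjusted p up to 0.22) and in depth-matched cells (0.074). In JQ1+paclitaxel TGFBI was lower in SAA1-high cells, at 441 against 502 CPM. Of the 83 lower genes 64 were tested elsewhere, and 18 (28.1%) fell and 0 rose. They were SLC14A1, IGFBP7, DSEL, DKK1, NUDT4, SMAGP, FAM114A1, UBE2E3, CKAP4, KCNMA1, H2AFX, CAV2, SERPINE2, C9orf3, NT5E, CAV1, HOMER3 and SLC7A11, or 23.4% of the 77.

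By list, calls in the other libraries were few, beside 2.12% of all genes called higher and 1.74% called lower. The NF-kB list had 1 of 13 genes called higher (SOD2), the interferon list 1 of 10 (OASL) and the NRF2 list 1 of 13 (AKR1C2). The glucocorticoid list had 2 of 13 higher, MT1X and DUSP1, a phosphatase of MAP kinases, which rose by 0.58 (edgeR adjusted p = 0.016, lost without DMSO or paclitaxel and in depth-matched cells), and the STAT3 and C/EBP list 1 of 7, CEBPB, at 0.50 (adjusted p = 0.033), a call lost whichever library was left out (0.064 to 0.21). KRT18 and KRT8 rose by 0.49 and 0.44 (adjusted p = 0.0053 and 0.036), both lost without paclitaxel or pre-treatment and in depth-matched cells (0.066 and 0.054), and KRT8 was at 431 against 447 CPM in DMSO. In the other direction S100A16 and S100A4, calcium-binding proteins, fell by 0.59 and 0.58 (adjusted p = 0.0020 and 0.0053), the second lost without DMSO or paclitaxel, and MMP2 by 0.87 (adjusted p = 0.031), lost without any library but JQ1+paclitaxel and in depth-matched cells (0.31). PTX3 fell by 1.25 ± 0.23 (adjusted p = 0.0063), lost without DMSO or paclitaxel (at most 0.078). Of 80 ribosomal protein genes tested 9 were called higher and 0 lower, with a median log2 fold change of 0.11 over the list, which in palbociclib had a median of -0.03.

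**Figure D5:**
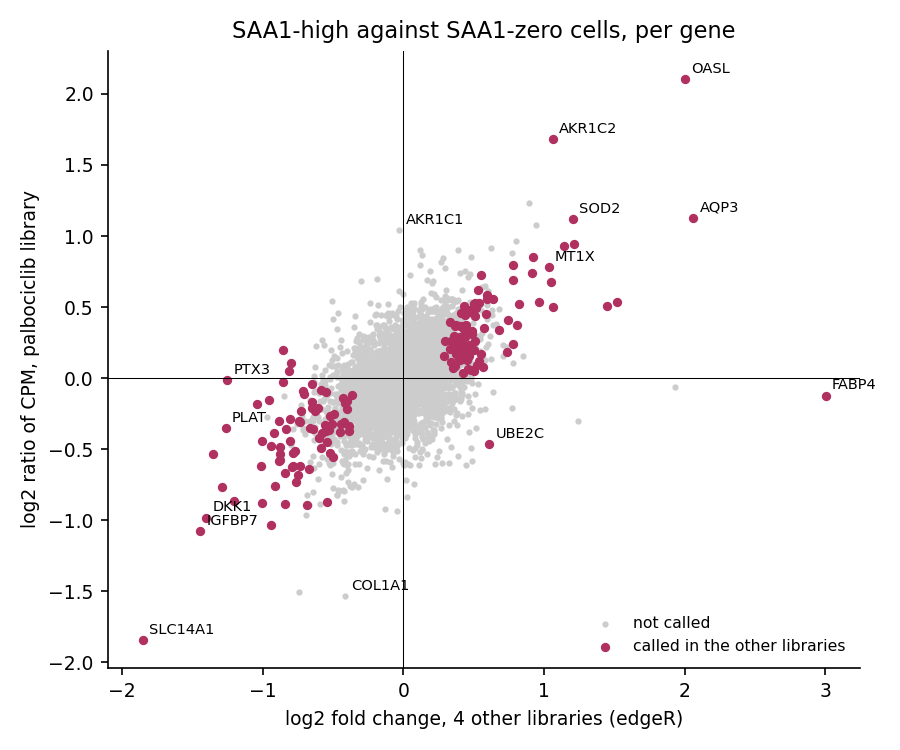
Log2 fold change of SAA1-high against SAA1-zero cells in the 4 other libraries (x axis, edgeR) and log2 ratio of CPM in palbociclib (y axis) for genes tested in both, without SAA2. Genes called in the other libraries are red. FABP4 lies at 3.002 on the x axis and -0.12 on the y axis, and AKR1C1 at -0.03 on the x axis and 1.04 on the y axis.

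The SAA1-high difference in palbociclib was also tested against that in the other libraries, as an interaction in edgeR. At an adjusted p under 0.05, 0 of 4426 genes (0%) differed, 65 had an unadjusted p under 0.05, and DESeq2 also called 0. The single palbociclib library was assumed to vary as the others do, and a p that misses the threshold does not show that the differences were equal. JQ1-B and JQ1+palbociclib, of the same experiment as palbociclib, were not in the fit. An interaction with palbociclib therefore cannot be told apart from an interaction with the experiment. The smallest unadjusted p belonged to FABP4, a fatty acid carrier, whose log2 interaction was -3.13 ± 0.67 (edgeR adjusted p = 0.999). FABP4 was at 1287 against 123 CPM in JQ1+paclitaxel, at 9.88 against 10.8 in palbociclib, and at 0 to 2.8 in the SAA1-high cells of the other 3 libraries, so its log2 fold change of 3.002 elsewhere came from JQ1+paclitaxel.

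The other small interaction p values belonged to UBE2C, PTX3, AKR1C1 and PLAT. UBE2C, a ubiquitin-conjugating enzyme of mitosis, was at 89.1 against 123 CPM in palbociclib and at 178 against 174 in pre-treatment, 298 against 172 in DMSO, 586 against 282 in paclitaxel and 136 against 109 in JQ1+paclitaxel (interaction -1.08 ± 0.31). Its rise of 0.61 elsewhere (edgeR adjusted p = 0.029) lost its call without DMSO or paclitaxel and in depth-matched cells, where it was 0.20 (adjusted p = 0.43). PTX3 was at 36.0 against 36.4 CPM in palbociclib and lower in all 4 others (1.24 ± 0.36). AKR1C1 gave a log2 fold change of -0.03 ± 0.19 elsewhere against a log2 ratio of 1.04 in palbociclib (1.07 ± 0.33), and PLAT an interaction of 0.91 ± 0.30. Their edgeR adjusted p was 0.999 each. Without JQ1+paclitaxel, 7 genes were called, among them UBE2C (edgeR adjusted p = 7.3e-05), PTX3 (0.025) and AKR1C1 (0.026). That fit gave the genes a nearly common spread, so these p values barely reflect how each gene itself varied between libraries.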

How the data were processed

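The authors aligned reads of 10x Genomics 3′ (v2) libraries to hg19 and counted UMIs with Cell Ranger, and handled cells with Seurat, per the labels and the study's methods. The deposited table holds raw UMI counts for 18955 genes in 5738 cells of 8 libraries, and a second deposited table gives UMI and gene counts per cell and the library. No cell was removed. Doublets were not called, and cells above the 95th percentile of UMIs were left out as an alternative. The members and gene lists were chosen with earlier results of these data known. Sums of counts were compared as CPM, with SAA1 left out, for genes averaging 20 CPM or more, with exact binomial intervals for ratios. Classes were depth-matched by drawing equal numbers within UMI deciles, and cells were thinned to 10000 UMIs without replacement. Named genes were the 12 highest and 12 lowest palbociclib ratios with at least 20 CPM in the higher class and the same direction in depth-matched cells, the 5 highest and 5 lowest called genes elsewhere, the 5 smallest interaction p, and up to 6 members of each list by level. Other genes named, such as those past the fold in a list or shared between comparisons, were chosen after their values were seen. Tests used edgeR 4.0.16 (glmQLFit, TMM) with library as a block on 8 pools, leaving 3 residual degrees of freedom, checked on simulated data, with DESeq2 1.42.0 as an alternative (R 4.3.3, Python 3.11.15). Libraries are the replicates of these tests, and they differ in treatment. Gene positions are from GENCODE lifted to GRCh37. Depth was 10621159 to 24240835 UMIs per library, and medians of 20664 to 22503 per cell.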

Additional observations from a re-analysis of the deposited data

How the results depend on the processing

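Ratios of named genes and lists past 1.5-fold in palbociclib kept their side of 1 under each depth, class, cell filter and averaging alternative. The counts of higher and lower genes were 107 and 126 with 10 or more SAA1 UMIs, 21 and 20 at a mean of at least 50 CPM, and 271 and 399 at 5 CPM, as more low genes entered. In the other libraries the counts called higher and lower were 56 and 31 in depth-matched cells, 151 and 264 without a level filter, and 198 and 160 with palbociclib added. They were 1 and 0 with at least 20 SAA1-high cells, which leaves 2 libraries and 1 residual degree of freedom (381 genes at an unadjusted p under 0.05). DESeq2 called 46 lower, the class of 3 or more UMIs 62 higher, and the 50 CPM filter 51 higher. With each library left out in turn, higher calls ranged from 12 to 208 and lower calls from 11 to 137. FABP4 turned to -0.026 under DESeq2 (3.002 in edgeR); the cause was not tested. For the difference between palbociclib and the other libraries, higher calls ranged from 0 to 3 and lower calls from 0 to 4 with a library left out, there were 1 and 7 without a level filter, and 1 lower in depth-matched cells. The fits without JQ1+paclitaxel and without a level filter gave the genes a common or nearly common spread.

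The share of cells with 5 or more SAA1 UMIs after thinning to 10000 UMIs was 14.3% in palbociclib, 3.92% in pre-treatment, 4.26% in JQ1+paclitaxel, 1.11% in DMSO, 0.951% in paclitaxel, 0% in JQ1-A and 0.118% in JQ1-B. With 10 or more UMIs it was 15.7%, 3.65%, 4.199% and 0.871% in the first 4, 0% in JQ1-A and JQ1+palbociclib, and 0.115% in JQ1-B. The test across libraries paired the SAA1-high and SAA1-zero cells of each library through the library block. Libraries of different treatments could not be paired, because the labels give them no shared replicate numbers.

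Ratios and shares rest on counting error only. The DMSO and paclitaxel classes hold 12 and 14 cells, which limits the fit across libraries.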
